A study of Mus musculus with 4 samples.

Results

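The loci of Dlx1 and Dlx2 on chromosome 2 and of Zic5 and Zic2 on chromosome 14 are paired gene loci, each holding 2 related transcription factor genes side by side. They were taken by position, as the array probes lying from 71315000 to 71365000 on chromosome 2 and from 121575000 to 121625000 on chromosome 14, in the coordinates of the array. These intervals held 4 of the 19769 tiled regions read for both antibodies, with 196 of the 474380 non-control probes of the array set, 76 at Dlx1-Dlx2 and 120 at Zic2-Zic5. The loci were selected on their RING1B and H3K27me3 values in these same arrays, so the values here are descriptions and no test was made. The question followed was how far RING1B and H3K27me3 reach along and between the paired genes.

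Chromatin came from pooled whole forelimb buds of wild-type BDF1 mouse embryos of stage E10.5, fixed for 20 min in 1% formaldehyde, and was enriched for either RING1B or H3K27me3 with antibodies. Amplified precipitated and input DNA shared an array in 2 dyes. The 4 arrays form 2 probe designs, so that each locus was read on 1 array per antibody, with 0 replicates. Whole buds mix ectoderm and mesenchyme, and a value is an average over all their cells. The arrays measure chromatin only, so the tissue label could not be set against expressed markers.

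RING1B is the catalytic subunit of Polycomb repressive complex 1, which places ubiquitin on histone H2A and compacts chromatin. H3K27me3 is the methyl mark that Polycomb repressive complex 2 places on histone H3, and it can recruit the first complex through its chromobox proteins. In mammals both are known to sit at CpG-rich promoters of developmental genes that a tissue does not use. Dlx1 and Dlx2 encode homeodomain factors known from forebrain interneurons and the branchial arches, and the pair is transcribed towards each other across a shared stretch of enhancers. Zic2 and Zic5 encode zinc-finger factors of the neural tube and neural crest, and they are transcribed away from each other.

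RefSeq promoters (build GRCm38.p6, 250 bases before to 50 after the start) were available for 3 of the 4 genes, Dlx1, Dlx2 and Zic5, and are shown because CpG content is the sequence feature tied to Polycomb promoters. CG is in capitals, and it reads the same on both strands. The Dlx1 promoter lies at chr2:71529195-71529494 on the plus strand, that of Dlx2 at chr2:71546705-71547004 on the minus strand and that of Zic5 at chr14:122465609-122465908 on the minus strand.
Dlx1: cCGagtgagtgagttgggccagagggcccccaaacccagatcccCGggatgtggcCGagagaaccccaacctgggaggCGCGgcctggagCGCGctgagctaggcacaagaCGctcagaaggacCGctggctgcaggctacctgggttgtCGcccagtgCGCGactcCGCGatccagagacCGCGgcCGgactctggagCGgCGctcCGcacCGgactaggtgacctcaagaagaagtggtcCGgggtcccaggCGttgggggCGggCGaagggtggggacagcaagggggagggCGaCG
Dlx2: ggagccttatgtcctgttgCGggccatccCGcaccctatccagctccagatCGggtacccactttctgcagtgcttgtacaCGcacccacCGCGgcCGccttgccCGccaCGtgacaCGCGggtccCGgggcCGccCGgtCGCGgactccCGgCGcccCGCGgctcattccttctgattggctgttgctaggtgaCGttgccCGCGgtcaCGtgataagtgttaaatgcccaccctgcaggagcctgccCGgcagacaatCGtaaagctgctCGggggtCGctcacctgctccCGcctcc
Zic5: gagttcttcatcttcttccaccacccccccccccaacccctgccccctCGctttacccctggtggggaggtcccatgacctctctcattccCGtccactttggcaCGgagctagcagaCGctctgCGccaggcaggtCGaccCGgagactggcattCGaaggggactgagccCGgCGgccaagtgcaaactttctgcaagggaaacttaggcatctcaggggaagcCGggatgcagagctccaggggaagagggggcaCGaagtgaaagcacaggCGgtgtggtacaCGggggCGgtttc
The Dlx1 promoter held 27 CG and 69.3% G and C, and 15.5% of all 32851 promoters of that table held at least as many CG. The Dlx2 promoter held 29 CG, a number reached by 12.9% of promoters. The Zic5 promoter held 15 CG, a number reached by 34.6%, against a median of 7 over all promoters. The Dlx promoters were thus richer in CG than that of Zic5. The sources used here do not give the build of the array coordinates, so these promoters could not be placed among the probes.

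Values are log2 ratios of Cy5 over Cy3, less the median of the array. This opposes the labels, by which the precipitate carried Cy3 and the input Cy5. With the dyes as labelled every sign below turns, and high values would be depletion. At these loci the 2 dyes differed in how they moved. Averaged over a tiled region, log2 Cy3 lay between -0.13 and 0.36 of the array median in the 4 tiled regions and for both antibodies, while log2 Cy5 lay 2.30 to 4.74 above it. Between the antibodies, log2 Cy3 correlated with r = 0.938 over 74 Dlx probes and 0.852 over 116 Zic probes, and log2 Cy5 with 0.757 and 0.870. Over all probes kept for both antibodies, log2 Cy3 correlated with 0.955 on the Dlx design and 0.840 on the Zic design. For log2 Cy5 these were 0.710 and 0.722. These correlations describe probes that share a design and a base composition. The direction was not settled here, and the plot of both dyes shows their levels probe by probe.

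**Figure D1:**
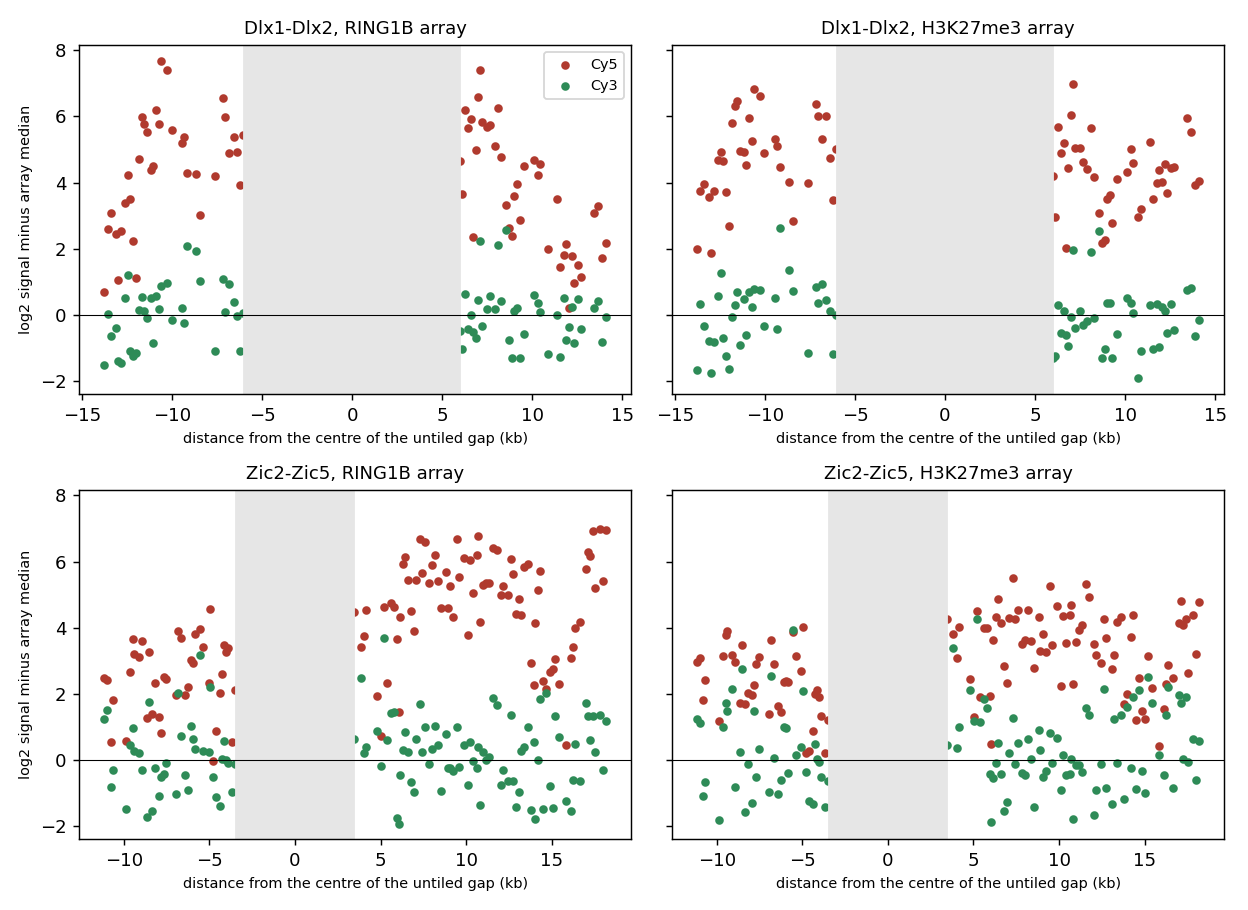
Log2 signal of Cy5 (red) and Cy3 (green) of each kept probe, less the array median of that dye, against distance in kb from the centre of the untiled gap of the locus, for each locus and antibody. Cy5 lies above Cy3 at nearly every probe, and Cy3 scatters around 0.

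At Dlx1-Dlx2 both antibodies gave high ratios over nearly all probes. RING1B ran from 0.51 to 6.75 with a median of 4.04 over 74 kept probes, those well above background in both dyes. H3K27me3 ran from 0.50 to 6.05 with a median of 4.60 over 75. At Zic2-Zic5 RING1B ran from 0.07 to 6.40 with a median of 3.99 over 118 probes, and H3K27me3 from 0.02 to 5.26 with a median of 2.93 over 116. The 2 loci had alike RING1B medians, and the H3K27me3 median was higher at Dlx1-Dlx2. No probe of either locus lay below 0.

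The share of probes at 2-fold or more was 95.9% for RING1B at Dlx1-Dlx2 (71 of 74, 95% Clopper-Pearson interval 88.6% to 99.2%), where 16.8% of all probes of that array reached it. For H3K27me3 it was 98.7% (74 of 75, 92.8% to 100%), against 27.3% of the array. At Zic2-Zic5 it was 94.1% for RING1B (111 of 118, 88.2% to 97.6%), against 18.7%, and 87.1% for H3K27me3 (101 of 116, 79.6% to 92.6%), against 24.3%. These intervals cover probe counting only. In the labelled direction, Cy3 over Cy5, 0 probes reached 2-fold for either antibody at either locus, against 17.5% and 25.4% of probes on the RING1B and H3K27me3 arrays of the Dlx design and 18.3% and 22.2% on those of the Zic design.

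The order of the antibodies at 8-fold depended on the threshold. At Dlx1-Dlx2, H3K27me3 reached it at 93.3% of probes (85.1% to 97.8%) and RING1B at 67.6% (55.7% to 78.0%). At Zic2-Zic5, RING1B reached it at 64.4% (55.1% to 73.0%) and H3K27me3 at 49.1% (39.7% to 58.6%). Over all probes of the Dlx design, 11.9% reached 8-fold for H3K27me3 and 3.6% for RING1B, and over the Zic design 8.51% and 4.34%. Both arrays thus had more H3K27me3 than RING1B probes at 8-fold, the order seen at Dlx1-Dlx2 and not at Zic2-Zic5. With the 90th percentile of each array as the threshold, RING1B had the higher share at both loci, with 94.6% against 88.0% for H3K27me3 at Dlx1-Dlx2 and 88.1% against 55.2% at Zic2-Zic5. Set beside stretches of 50 kb with at least 20 kept probes, the Dlx share at 8-fold was reached by 36 of 4875 stretches for H3K27me3 and 74 of 4932 for RING1B. The Zic share was reached by 279 of 4719 for H3K27me3 and 89 of 4811 for RING1B.

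Each locus held 2 tiled regions, within which probe starts followed each other by no more than 1000 bp, separated by a gap without probes. At Dlx1-Dlx2 the lower region ran from 71325124 to 71332901 (7.78 kb, 35 probes) and the upper from 71344877 to 71353053 (8.18 kb, 41 probes), with 12.0 kb untiled between them. At Zic2-Zic5 the lower region ran from 121583774 to 121591478 (7.71 kb, 41 probes) and the upper from 121598362 to 121613165 (14.8 kb, 79 probes), with 6.88 kb untiled. In GRCm38 the gene order along chromosome 2 is Dlx1, the antisense gene Dlx1as and Dlx2, and along chromosome 14 Zic5, the long noncoding 2610035F20Rik and Zic2. The sources used here tie no tiled region to a single gene, so the regions are named lower and upper by coordinate. Nothing was measured inside the gaps.

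**Figure D2:**
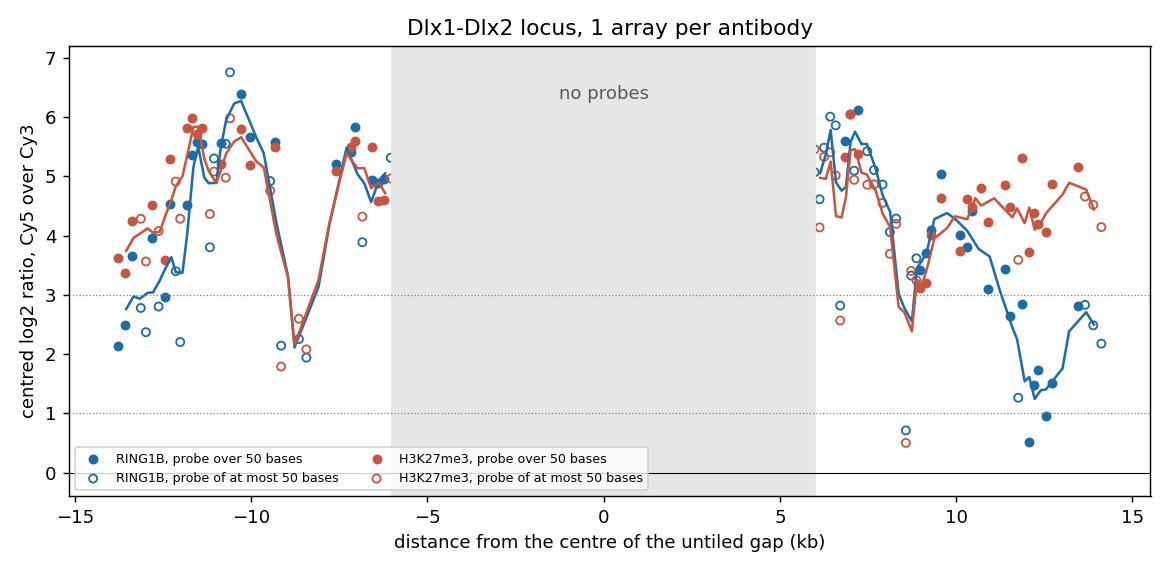
Centred log2 ratio of Cy5 over Cy3 at each kept probe of Dlx1-Dlx2 for RING1B (blue) and H3K27me3 (red), filled for probes over 50 bases and open for shorter ones, with lines for means of 3 neighbouring probes and dotted lines at 2-fold and 8-fold. On this scale the antibodies run together beside the gap and part at the outer end of the upper region.

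The summits of the Dlx regions are given as windows. A window is the mean of 3 neighbouring kept probes, and its error is the SD over them. RING1B reached 6.27 ± 0.55 at 71328294 to 71328925, rank 39 of 10198 tiled regions of that array, and H3K27me3 5.84 ± 0.13 at 71327225 to 71327558, rank 91 of 10284. In the upper Dlx region RING1B reached 5.78 ± 0.27 at 71345144 to 71345518, rank 85, and H3K27me3 5.46 ± 0.56 at 71345879 to 71346165, rank 288. The summit was higher in the lower Dlx region for each antibody, except that on probes over 50 bases, an alternative chosen after the data were seen, RING1B had 5.88 in the lower and 5.92 in the upper region. On that design a top window of 8-fold was found in 5.41% of regions for RING1B, 15.9% for H3K27me3 and 5.45% for both.

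Signal was high on both edges of the untiled Dlx gap. The last 3 probes before it averaged 5.05 ± 0.23 for RING1B and 4.72 ± 0.21 for H3K27me3. The first 3 after it averaged 5.05 ± 0.44 and 4.97 ± 0.73. Neither antibody was thus low where the Dlx tiling stopped and resumed. The lowest window between the 2 summits lay inside the lower region, at 71329744 to 71330504, and was the same for both antibodies, with 2.11 ± 0.16 for RING1B and 2.15 ± 0.41 for H3K27me3. This window was 3.67 and 3.30 below the lower of its 2 summits.

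The dip was made of short probes. All 3 probes of that window were 45 bases long, the shortest at these loci, where probes ran from 45 to 60 bases. No probe over 50 bases lay within it, so its level on longer probes was not measured. Both dyes lay above the array median in the dip. For RING1B, log2 Cy5 was 13.98, 13.94 and 12.71 against a median of 9.68. Its log2 Cy3 was 11.85, 11.69 and 10.79 against 9.75. For H3K27me3, log2 Cy5 was 14.79, 14.33 and 13.17 against 10.31, and log2 Cy3 12.96, 11.70 and 11.05 against 10.33. The low ratios there thus went with raised Cy3, while Cy5 stayed well above its median. The nearest longer probe below the dip, from 71329583, had 5.57 for RING1B and 5.50 for H3K27me3, and the nearest above it, from 71331305, had 5.22 and 5.09. Over both loci, 15 of the 19 probes under 2-fold for at least 1 antibody were of at most 50 bases, against 62 of the other 171. Of the 19, 16 were Zic probes and 3 were Dlx probes, and the probes of this dip were not among them. Those from 71350959 and 71351425 at Dlx1-Dlx2 were longer than 50 bases. In the Dlx regions short probes averaged lower than longer ones, except for RING1B in the upper region, with 3.95 against 3.36. In tiled regions of a mean of at least 3, short probes averaged 3.55 and longer ones 4.57 for RING1B on the Dlx design, and 3.59 and 4.03 for H3K27me3. The part of probe length or of the Cy3 level in the dips was not tested.

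On the centred scale the outer end of the upper Dlx region was where the antibodies parted. With loess normalization H3K27me3 minus RING1B averaged 0.23 there and -1.09 over the whole region. On the loess scale they thus lay closer at this end. H3K27me3 minus RING1B was still higher there than over the whole region, as on the centred scale. In its first 5 kb, RING1B ran from 0.71 to 6.11 with a median of 4.51 over 26 probes, and H3K27me3 from 0.50 to 6.05 with a median of 4.55 over 27. From 5 kb to its end, RING1B ran from 0.51 to 3.44 with a median of 2.18 over 13 probes, while H3K27me3 ran from 3.59 to 5.31 with a median of 4.48 over 13. On this scale the 2 ranges in that outer stretch did not overlap. The antibodies have no common scale, and how often such ranges overlap in other stretches was not counted. RING1B averaged 4.45 ± 1.23 in the first stretch and 2.05 ± 0.88 in the second (SD over probes), and H3K27me3 4.29 ± 1.14 and 4.46 ± 0.52.

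The outer stretch minus the first was -2.40 for RING1B and 0.17 for H3K27me3, and with loess normalization -2.0 and -0.11. H3K27me3 minus RING1B in the outer stretch averaged 2.40 over 13 probes, and 0.23 with loess. The lowest stretch, 71350959 to 71351655, averaged 1.24 ± 0.50 for RING1B and 4.24 ± 0.42 for H3K27me3 over 5 probes, all longer than 50 bases. RING1B did not return to its summit level, at 2.36 ± 0.54 over the last 5 probes of the tiling, where H3K27me3 averaged 4.67 ± 0.38. On probes over 50 bases the outer stretch minus the first was -2.49 for RING1B and 0.093 for H3K27me3. The longest uninterrupted run of windows at 8-fold ended at 71350479 for RING1B, after 2.86 kb, and reached the end of the tiling for H3K27me3, after 5.44 kb. Both runs began at 71347616, next to a probe of 45 bases from 71347464 with 0.71 for RING1B and 0.50 for H3K27me3. On the gap side of that probe, all windows from 71344877 to 71347232 were also at 8-fold for both antibodies. The run lengths are thus not the whole reach from the gap. The reach of H3K27me3 beyond that end was not measured. The share of windows at 8-fold was 27.2 percentage points higher for H3K27me3 than for RING1B in the upper Dlx region. Over 537 other regions at 8-fold for both antibodies the median was 31.0, and the upper Dlx region stood at percentile 44.5, near the middle.

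The opposite outer edge, at the start of the lower Dlx region, had a smaller gap of the same sign. Over the first 1 kb RING1B averaged 2.90 ± 0.74 and H3K27me3 3.93 ± 0.47 on 6 probes, and over the next 1 kb 3.40 ± 0.95 and 4.66 ± 0.83. Around the RING1B summit, from 71328173 to 71328925, the order turned, with 6.09 ± 0.58 for RING1B and 5.49 ± 0.48 for H3K27me3 on 4 probes. Towards the gap the antibodies lay close, at 5.02 ± 0.20 and 4.91 ± 0.43 over the last 4 probes.

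Beyond the interval, the nearest tiled region on the lower side lay 10.6 kb from the first Dlx probe, from 71306018 to 71314534. There RING1B averaged -0.47 ± 0.88 and H3K27me3 -0.91 ± 0.82 over 36 probes, of which 0 reached 2-fold for either antibody. The means were thus above the array median at the first probes of the lower Dlx region and below it in the next tiled stretch. On the upper side the nearest region lay 164 kb away, and 0 of its 7 probes reached 2-fold.

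Probe by probe, H3K27me3 minus RING1B averaged 0.34 ± 0.72 in the lower Dlx region and 0.68 ± 1.33 in the upper (SD over 35 and 39 probes), and with loess normalization these turned to -1.60 and -1.09. H3K27me3 was at least 2-fold over RING1B at 21 of 74 Dlx probes, against 26.5% of probes of that design, and RING1B was so over H3K27me3 at 0 of 74, against 16.5%. The share of the 21 lies near the background and the 0 lies below it. Of the 21, 13 were the probes from 5 kb to the end of the upper region, as the plot of the difference shows.

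**Figure D3:**
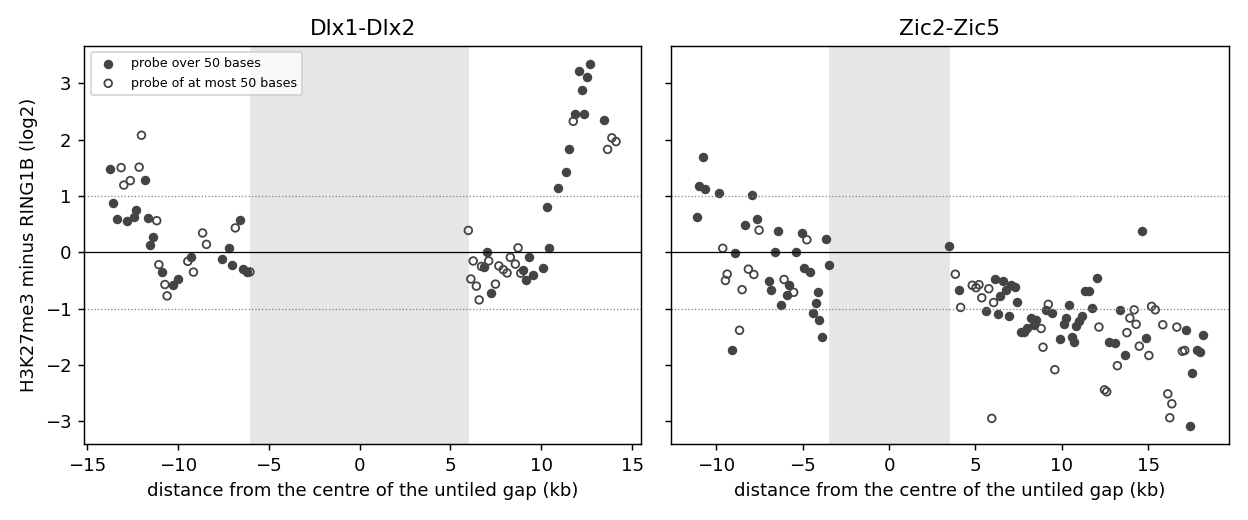
H3K27me3 minus RING1B (log2) at each probe kept for both antibodies, against distance in kb from the centre of the untiled gap (grey), filled for probes over 50 bases and open for shorter ones, with dotted lines at 2-fold. At Dlx1-Dlx2 the difference is highest at the outer end of the upper region, and at Zic2-Zic5 it lies below 0 at 75 of 77 probes of the upper region.

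At Zic2-Zic5 the 2 tiled regions differed in level. The lower region had RING1B from 0.42 to 3.86 (median 2.36) and H3K27me3 from 0.02 to 3.85 (median 2.15) over 39 probes each. Of these, 92.3% reached 2-fold for RING1B and 89.7% for H3K27me3, against 18.7% and 24.3% of all probes of those arrays. The upper region was higher, with RING1B from 0.07 to 6.40 (median 4.91) over 79 probes and H3K27me3 from 0.22 to 5.26 (median 3.64) over 77. The ranges of the 2 regions overlapped for both antibodies, while the medians were higher in the upper one. At its outer end, over the first 1 kb, the lower region averaged 1.35 ± 0.50 for RING1B and 2.51 ± 0.68 for H3K27me3 on 4 probes. On the centred scale this was the order at both outer ends of Dlx1-Dlx2. The outer end of the upper Zic region had the opposite order, with 5.47 ± 0.39 for RING1B and 3.69 ± 0.65 for H3K27me3 on 4 probes.

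**Figure D4:**
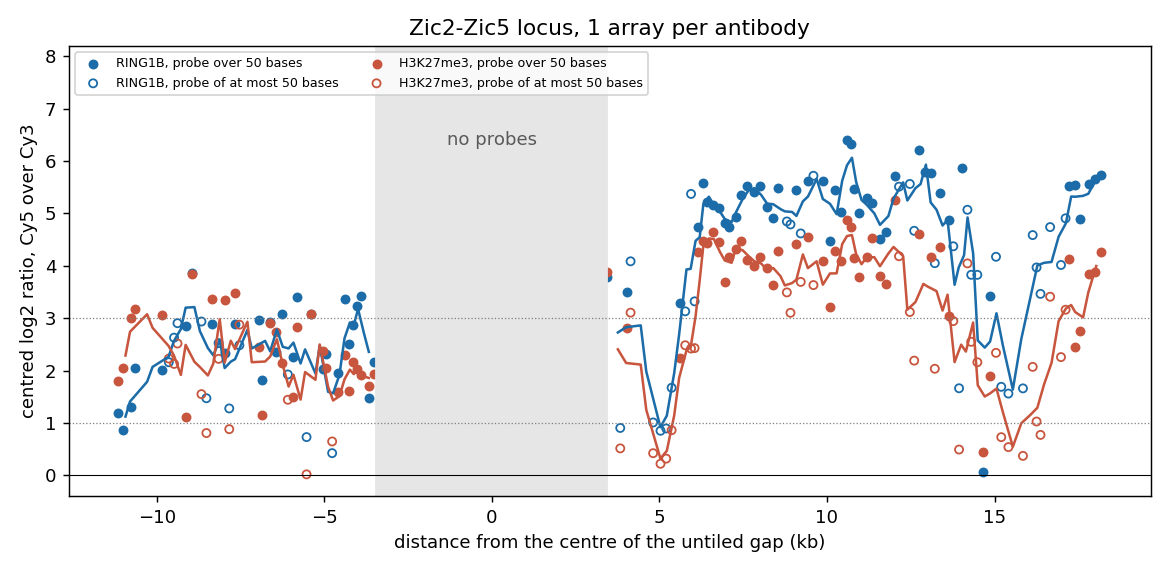
Centred log2 ratio of Cy5 over Cy3 at each kept probe of Zic2-Zic5 for RING1B (blue) and H3K27me3 (red), filled for probes over 50 bases and open for shorter ones, with lines for means of 3 neighbouring probes and dotted lines at 2-fold and 8-fold. RING1B lies above H3K27me3 along the upper region, and both are lower in the lower region.

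The summit of the upper Zic region was at the same window for both antibodies, 121605531 to 121605799. RING1B was 6.06 ± 0.52 there, rank 72 of 9941 regions, and H3K27me3 4.59 ± 0.39, rank 468 of 9940. In the lower region the highest windows were 3.21 ± 0.56 for RING1B at 121585793 to 121586300, rank 601, and 3.08 ± 0.08 for H3K27me3 at 121584147 to 121585122, rank 1315. All 4 windows passed 8-fold, but those of the lower region did so narrowly, with 2.50 for RING1B and 1.66 for H3K27me3 under normexp and 2.71 and 2.85 under loess. A top window of 8-fold was found in 6.78% of regions of that design for RING1B, 13.7% for H3K27me3 and 6.75% for both. With the dyes as labelled, the 4 Dlx and Zic regions would rank between 8457 and 10144 for the 2 antibodies.

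Both antibodies formed a broad plateau in the upper Zic region. Windows at 8-fold ran uninterrupted for 8.91 kb for RING1B, from 121600546 to 121609450, and for 7.87 kb for H3K27me3, from 121600864 to 121608735. These runs were not recomputed under other settings. The lowest H3K27me3 window between the 2 highest windows of the region was 1.70 with normexp and 2.39 with loess, under 8-fold, against 3.63. The 2 highest windows were chosen anew in each setting, so these lows may lie at other places and do not measure the runs. Stretches of 1 kb between 121601517 and 121607117 averaged 5.02 to 5.62 for RING1B and 3.80 to 4.37 for H3K27me3. Windows at 8-fold made up 81.8% of this region for RING1B and 65.3% for H3K27me3. Among other regions of that design with a top window of 8-fold, the medians were 27.3% (663 regions) and 33.3% (1322 regions). The lower region, with 8.11% and 2.70%, lay under the same medians.

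RING1B exceeded H3K27me3 along nearly the whole upper Zic region. H3K27me3 minus RING1B averaged -1.29 ± 0.66 over 77 probes and was below 0 at 75 of them. The other two were at 121598362 and 121609563 on the array. RING1B was at least 2-fold over H3K27me3 at 52 of the 77, against 17.7% of probes of that design, and H3K27me3 was so over RING1B at 0, against 21.7%. In the lower region the difference was -0.18 ± 0.79 over 39 probes, with 5 probes at 2-fold in each direction, and without centring of the arrays it was 0.019. The upper difference kept its sign in every alternative run, from -1.89 with normexp to -1.09 without centring.

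Among other tiled regions at 8-fold for both antibodies, the median of the mean difference was 0.57 (quartiles -0.03 and 1.05) over 645 regions of the Zic design. The upper Zic region, at -1.32 over the probes kept for each antibody, stood at percentile 0.310 of them. That set is defined in Cy5 over Cy3. With the dyes turned, the signs of the differences turn, and the 4 regions, with 0 probes at 2-fold, would not belong to a set of enriched regions. For the 537 such regions of the Dlx design the median was 1.30 (quartiles 0.63 and 1.87), and the lower and upper Dlx regions stood at percentiles 19.6 and 26.1. The antibodies have no common scale, and array SDs were 1.33 and 1.91 for RING1B and H3K27me3 on the Dlx design and 1.41 and 1.68 on the Zic design. The lower Zic region stood at percentile 21.4. The outer stretch of the upper Dlx region was not set against like stretches of other regions.

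**Figure D5:**
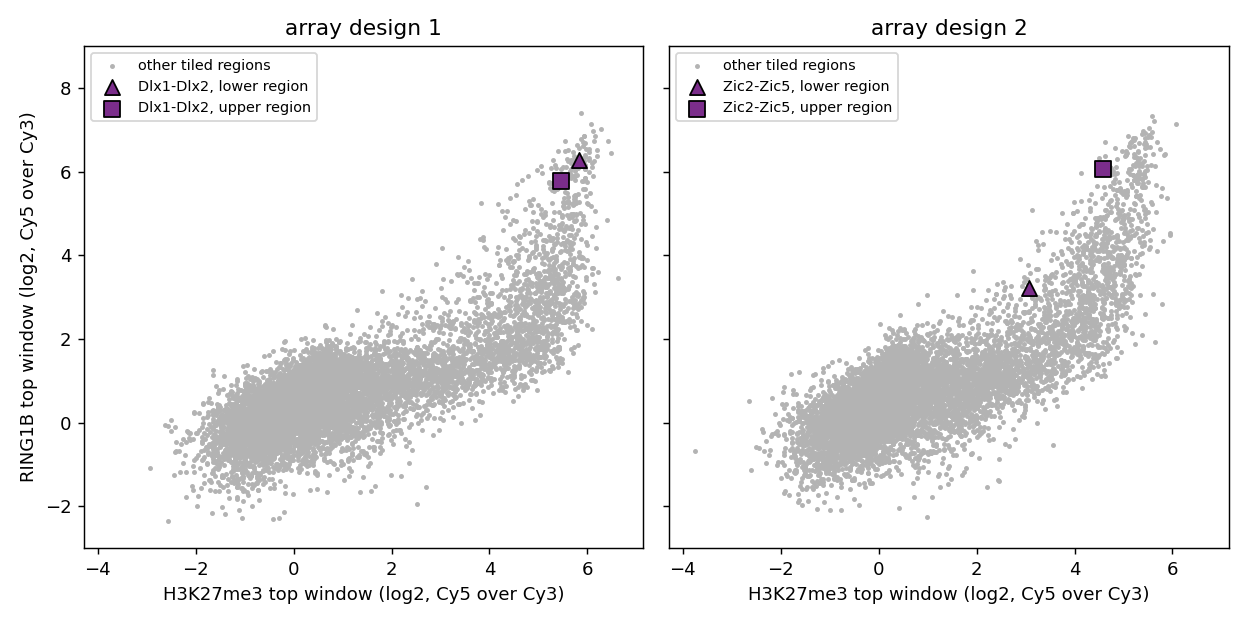
Top window of each tiled region for RING1B against H3K27me3 (log2, Cy5 over Cy3), with other regions of each array design in grey and the lower (triangle) and upper (square) regions of each locus in purple. Both Dlx regions and the upper Zic region lie at RING1B values of 5.78 to 6.27, and the upper Zic region lies at a lower H3K27me3 value than the Dlx regions.

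The Zic profile had 2 dips in the upper region. The first, at 121599733 to 121600167, was the lowest window of that region for both antibodies, with 0.92 ± 0.08 for RING1B and 0.32 ± 0.10 for H3K27me3. It lay 2.29 and 2.75 below the lower of the summits of the 2 regions. Its 3 probes were all of 45 bases, and no probe over 50 bases lay within it. The nearest longer probes, from 121598948 and from 121600546, had RING1B values of 3.49 and 3.29 and H3K27me3 values of 2.81 and 2.25.

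The second dip lay between the plateau and the upper end of the tiling. RING1B was 1.64 ± 0.07 at 121610120 to 121610811, between its summit and a window of 5.66 ± 0.09 at the end of the tiling, at 121612744 to 121613165. H3K27me3 was also low at 121610120 to 121610811, with 0.55 ± 0.18. Over the 1 kb from 121610767 to 121611335, H3K27me3 averaged 1.06 ± 0.73 and RING1B 3.42 ± 1.26 on 4 probes. At the end, from 121612456 to 121613165, they averaged 3.69 ± 0.65 and 5.47 ± 0.39. All 3 probes of the RING1B dip were of 45 bases, and no probe over 50 bases lay within it. A probe of 52 bases just before it, from 121609563, was also low, at 0.07 for RING1B and 0.45 for H3K27me3, while the next longer probe, from 121609790, had 3.42 and 1.90. The 2 highest H3K27me3 windows at least 3 kb apart both lay on the plateau, at 4.52 ± 0.11 and 4.59 ± 0.39, with a lowest window of 3.63 ± 0.60 between them.

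At the edges of the untiled Zic gap, the last 3 probes before it averaged 2.36 ± 0.99 for RING1B and 1.86 ± 0.13 for H3K27me3, and the first 3 after it 2.73 ± 1.59 and 2.41 ± 1.72. Both edges were lower than those of the Dlx gap, at 4.72 to 5.05. Which genes flank either gap is not given by the sources used here, and the upper Zic region may cover both Zic genes. The Zic gap can thus not be read as the stretch between Zic5 and Zic2. Beyond the interval, the nearest tiled region on the upper side lay 51.3 kb from the last Zic probe, and 0 of its 5 RING1B and 0 of its 4 H3K27me3 probes reached 2-fold. On the lower side the nearest lay 266 kb away, where 4 of 9 RING1B probes and 1 of 9 H3K27me3 probes reached it, with means of 0.50 ± 1.04 and 0.07 ± 0.59. RING1B, at 5.48 ± 0.34 over the last 5 probes of the Zic tiling, was high where the tiling stopped.

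The antibodies followed each other across probes more closely at some regions than others. Log2 ratios of RING1B and H3K27me3 correlated with r = 0.867 over 35 probes of the lower Dlx region, 0.559 over 39 of the upper, 0.550 over 39 of the lower Zic region and 0.894 over 77 of the upper. Over all probes of the designs r was 0.678 and 0.673. Counting probes at 8-fold, the Dlx regions held 50 for both antibodies, 19 for H3K27me3 alone and 0 for RING1B alone. The upper Zic region held 49 for both, 18 for RING1B alone and 0 for H3K27me3 alone. On this scale the Dlx probes at 8-fold for RING1B were all at 8-fold for H3K27me3, and in the upper Zic region the reverse held. The Dlx order is tied to the scale, since with loess the mean difference there was -1.60 and -1.09 and at the 90th percentile RING1B had the higher share. The lower Zic region had 2 for both, 5 for RING1B alone and 6 for H3K27me3 alone. The shares of such probes over all probes of the designs were not counted, so this overlap cannot be called particular to these loci. By top windows, 552 tiled regions of the Dlx design reached 8-fold for RING1B and 547 for both antibodies. On the Zic design these were 674 and 656.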

How the data were processed

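RING1B and H3K27me3 precipitates of forelimb buds were measured on 4 2-colour Agilent arrays. Per the file headers, the authors extracted them with Feature Extraction 10.1.1.1, whose processed signals are intensity values with background and spatial trend subtracted and dyes normalized linearly. The deposited value tables hold log2 Cy5 over Cy3, with medians of -0.16 to 0.018, and matched the scanner signals for all probes within 0.001. Here log2 ratios were centred on the median of kept probes (197312 to 203761 per array). Spots that were controls, outliers or not well above background in either dye were left out, and no probe at the loci was saturated. With 0 replicates nothing was tested across samples, the number of arrays limits the precision, and errors are SDs over probes. The members and lists were chosen with earlier results of these data known. The design named the 4 genes by their intervals and every tiled region within. The deposited raw intensity values served normexp (limma 3.58.1, R 4.3.3), run on median signals because the files give no mean signals. The window code was tested on simulated data. Python 3.11.15 and scipy 1.17.1 were used.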

Additional observations from a re-analysis of the deposited data

How the results depend on the processing

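No paired analysis was possible because the numbers 1 and 2 mark probe designs that share no probe, and for the same reason no array could be left out. Settings were compared with the SD over the probes of a window, the standard error over probes of a mean difference or the interval of a share. The deposited table holds the same ratios as the main setting, so its result was fixed in advance and is no separate check. The 8 top windows all passed 8-fold in the main setting, and so in the deposited table. They also did without centring, under either other filter on dim probes, on probes over 50 bases and as medians. Under normexp and loess 6 did, and under mode centring and windows of 5 probes 7 did. Those lost were of the lower Zic region, H3K27me3 with 1.66, 2.85, 2.95 and 2.72 in that order and RING1B with 2.50 and 2.71 under normexp and loess.

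Shares at 2-fold depended most on background correction and loess. With normexp they were 83.8% for RING1B at Dlx1-Dlx2 and 56.0% for H3K27me3 at Zic2-Zic5. With loess they were 84.0% for H3K27me3 at Dlx1-Dlx2 and, at Zic2-Zic5, 85.6% for RING1B and 73.3% for H3K27me3. On probes over 50 bases they were 100% and 98.6% for H3K27me3 at Dlx1-Dlx2 and Zic2-Zic5. At 1.5-fold RING1B at Zic2-Zic5 had 98.3%. At 8-fold the shares were 67.6% for RING1B at Dlx1-Dlx2, and 64.4% for RING1B and 49.1% for H3K27me3 at Zic2-Zic5. At the 90th percentile of each array they were 88.0% for H3K27me3 at Dlx1-Dlx2, and 88.1% for RING1B and 55.2% for H3K27me3 at Zic2-Zic5.

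H3K27me3 minus RING1B was scale dependent, and the cause was not tested. With loess it was -1.60 and -1.09 in the lower and upper Dlx regions, and -0.32 and -1.20 in the Zic regions. With normexp these were 0.69, 0.98, -0.83 and -1.89. With mode centring it was 0.19 in the lower Dlx region and -0.48 and -1.59 in the Zic regions. Without centring the Zic regions had 0.019 and -1.09. On probes over 50 bases the upper Dlx region had 1.13 and the upper Zic region -1.15. RING1B in the outer stretch of the upper Dlx region, less its first 5 kb, was -2.49 to -2.0 in all settings run, and H3K27me3 was -0.11 with loess against 0.17.

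The lowest windows moved with the settings. Summits were chosen anew in each setting, so the lowest windows may also lie at other places. With loess, H3K27me3 was -0.85 between the Dlx summits and -0.74 between the Zic summits. Of the 6 lowest windows 4 were at least 2-fold, 3 with loess and 6 on probes over 50 bases, a setting that has no probe in the dips and so measures other places.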
